A study of Mus musculus with 2 samples.

Results

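CpG-poor MAFK-bound regions near the starts of protein-coding genes were examined in ES-E14, a line of mouse embryonic stem cells. From the optimal list of reproducible binding regions, those on chromosomes 1 to 19 and X were kept whose summit, the point of highest signal, lay within 1 kb of the transcription start site (TSS) of a protein-coding transcript. Of these, a region was taken as CpG-poor when the 1001 bp around its summit had a GC share below 0.5 or a ratio of observed to expected CpG below 0.6. The rule chose 867 of 16836 regions. A further 747 promoter regions passed neither limit and are called CpG-rich here, and 15075 CpG-poor regions lay beyond 1 kb of any such TSS and are called distal.

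The study was a chromatin immunoprecipitation sequencing experiment with an antibody against MAFK. It had 2 biological replicates of 1 group, ES-E14 cells from a male embryo of mouse strain 129/Ola, with no genotype change, treatment or time point named in the labels. Both replicates carry the same labelled cell source, so the spread between them may be technical. The files hold binding regions and neither expression values nor read counts, so the cell identity could not be set against marker expression, and the read depth is unknown.

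MAFK is a small MAF protein, a basic leucine zipper factor without a transactivation domain of its own. It binds DNA as a homodimer or as a heterodimer with CNC factors such as NRF2 (Nfe2l2) and NFE2L1, which activate, or with BACH1 and BACH2, which repress. The heterodimers recognise the antioxidant response element (ARE), joining a MAF half-site to an AP-1-like half-site, while small MAF homodimers recognise a palindrome of MAF half-sites, and the genes best known to carry AREs encode glutathione, thioredoxin, quinone and heme handling proteins.

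Sequences are given first, because the strongest regions differ in how closely they match the element. Each is 5′ to 3′ from the mm10 (GRCm38) reference, which is not of strain 129/Ola, on the strand that holds the match, and capitals mark the match. The first set holds the composite element, TGACTCAGCA or TGAGTCAGCA, in 6 of the 9 regions that carry it among the 25 strongest.
Rasal1 (chr5:120650111-120650170, plus strand): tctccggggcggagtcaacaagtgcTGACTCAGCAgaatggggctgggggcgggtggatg
Tex19.1 (chr11:121146017-121146076, plus strand): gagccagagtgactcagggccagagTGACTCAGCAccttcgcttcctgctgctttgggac
Mgat5 (chr1:127306485-127306544, plus strand): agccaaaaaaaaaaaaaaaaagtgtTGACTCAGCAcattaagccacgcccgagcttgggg
Slc3a2 (chr19:8713084-8713143, minus strand): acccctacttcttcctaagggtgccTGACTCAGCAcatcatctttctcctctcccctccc
Mafg (chr11:120630182-120630241, minus strand): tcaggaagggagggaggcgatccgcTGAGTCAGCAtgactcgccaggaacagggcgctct
Plekhh3 (chr11:101172138-101172197, minus strand): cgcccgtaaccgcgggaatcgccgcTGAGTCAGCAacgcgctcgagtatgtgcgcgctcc

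The second set holds regions of high signal without the composite element but with the shorter ARE core, which is TGACNNNGC or TGAGNNNGC with N any base. It is shown because the 3 highest signals among the members lay at such sequences. Only the bases next to the element are printed for Gsta4, whose region lies in an untranslated region (UTR).
Gatad2a (chr8:69936537-69936595, minus strand): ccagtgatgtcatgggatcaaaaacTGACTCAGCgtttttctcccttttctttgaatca
Gsta4 (chr9:78191851-78191879, plus strand): tactcagtaaTGAGTCAGCgaaaactttt
Nol11 (chr11:107189455-107189513, plus strand): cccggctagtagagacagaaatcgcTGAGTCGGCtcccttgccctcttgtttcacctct
Amhr2 (chr15:102451152-102451210, minus strand): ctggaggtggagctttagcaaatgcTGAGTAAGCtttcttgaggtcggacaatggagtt
Fmn1 (chr2:113440790-113440848, minus strand): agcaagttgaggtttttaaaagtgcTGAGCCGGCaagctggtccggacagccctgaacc
Nqo1 (chr8:107403608-107403666, minus strand): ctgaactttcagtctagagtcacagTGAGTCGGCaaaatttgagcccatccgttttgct

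The third set shows strong regions with no composite element and no ARE core within 50 bp of the summit. Here capitals mark the stretch closest to the composite element. It differed from that element at 1 base for Gstp2, Bicdl1, Txn1 and Vangl1, at 2 bases for Gstm4 and at 3 bases for Sds. Gstm4 alone of these matched the T-MARE, the longer palindromic MAF element, with up to 2 mismatches allowed.
Gstp2 (chr19:4046081-4046140, minus strand): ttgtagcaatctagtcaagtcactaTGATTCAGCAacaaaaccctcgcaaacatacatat
Bicdl1 (chr5:115653221-115653280, minus strand): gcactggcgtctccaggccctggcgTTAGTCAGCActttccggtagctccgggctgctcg
Txn1 (chr4:57956850-57956909, minus strand): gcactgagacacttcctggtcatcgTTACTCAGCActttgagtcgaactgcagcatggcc
Sds (chr5:120478177-120478236, minus strand): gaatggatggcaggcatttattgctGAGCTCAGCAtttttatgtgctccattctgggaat
Vangl1 (chr3:102197319-102197378, plus strand): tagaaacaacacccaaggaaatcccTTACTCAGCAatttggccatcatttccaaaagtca
Gstm4 (chr3:108045026-108045085, minus strand): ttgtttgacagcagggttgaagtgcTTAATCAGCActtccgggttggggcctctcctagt

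The rule admits regions by either of the composition limits. Both limits were met by 387 members, the CpG ratio alone by 381 and the GC share alone by 99. The last group had a GC share below 0.5 but a CpG ratio of 0.6 or more, so not CpG-poor by the ratio. Nol11 had a GC share of 0.4995 and a CpG ratio of 0.773, and Ubb, a ubiquitin gene, a CpG ratio of 1.05. Oxr1, at a CpG ratio of 0.601, was close to that limit. Just inside the CpG limit were Ttc4 at 0.5994, Ciao2a at 0.5993 and Sertad2 at 0.5987, and just outside it Tm9sf4 at 0.6008, Myc at 0.6011 and Acaa1a at 0.6016. Just inside the GC limit were Nol11 and Ubb, each at 0.4995, and just outside it Acyp2, Eya3 and Ppp6r3, each at 0.5005. The limits therefore separated regions of almost the same composition, whose signals overlapped, from 8.17 at Ttc4 to 343 at Nol11 inside and from 12.1 at Myc to 55.9 at Acyp2 outside.

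Members were not confined to the outermost start of a gene. A summit lay within 1 kb of the 5′-most TSS of a gene for 583 of 867 members, and the others lay at starts of other annotated transcripts. For 366 of the 867 (42.2%) such a 5′-most TSS itself lay in a CpG-poor window. The label CpG-poor thus describes the sequence around the summit, and not always the promoter at the TSS. By the annotation 382 summits were in introns, 337 outside protein-coding transcripts, 124 in UTRs and 24 in coding exons. The members were near the TSSs of 857 genes. Of these genes 51 had more than 1 member, and Plec, which encodes the cytoskeletal linker plectin and has many alternative starts, had 4. Another member overlapped 36 of the 867 regions, such as the pair at Tnp2, so regions are not fully separate items.

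The signal value deposited for each region is the authors' score on a scale the sources used here do not state, and it serves here for description and ranking alone. The members had a median signal of 25.95, with quartiles of 17.7 and 45.9 and a range from 3.88 to 433. The values in each replicate come from the relaxed lists, which hold many weak regions and cover 827 of the 867 members in both replicates.

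The strongest member lay 45 bp upstream of a start of Gatad2a, which encodes a subunit of the NuRD chromatin remodelling complex. Its signal was 433 in the optimal list, 229 in replicate 1 and 202 in replicate 2. Gsta4, a glutathione S-transferase that acts on products of lipid peroxidation, followed with 348, and with 179 and 169.8 in the replicates. These and the next regions stood at the top in both replicates.

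Nol11, a ribosome biogenesis factor, had a signal of 343, with 153 and 187 in replicates 1 and 2. Rasal1, a RAS GTPase-activating protein, had 312, with 161 and 147. Tex19.1, which is known for the control of retrotransposons in germ cells and stem cells, had 294, with 146 and 149.6. The order of the replicates changed from region to region, so neither replicate was higher throughout.

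Below these came Tmem37 at 272, Gstp2 at 262, Arl14 (a small GTPase) at 257, Bicdl1 (a motor protein adaptor) at 252, Mgat5 (an N-glycan branching enzyme) at 248, Amhr2 (the receptor of anti-Müllerian hormone) at 235 and Tmem179 at 231. Slc3a2, the heavy chain that partners the cystine carrier SLC7A11, had 223, with 115 and 109 in the replicates. Mafg, a small MAF gene itself, had 222, with 101 and 122. The rest of the 25 strongest ran from Adnp2 at 225 down to Wdr62, a spindle protein, at 164, and included Kctd11, Plekhh3, Ppp1r10, Brd2, Mtpap, Txn1, Pf4, Fmn1 and Sds. All 25 were in the thresholded lists of both replicates. The genes do not belong to 1 class: chromatin, signalling, transport, glycosylation and redox genes stand side by side.

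**Figure D1:**
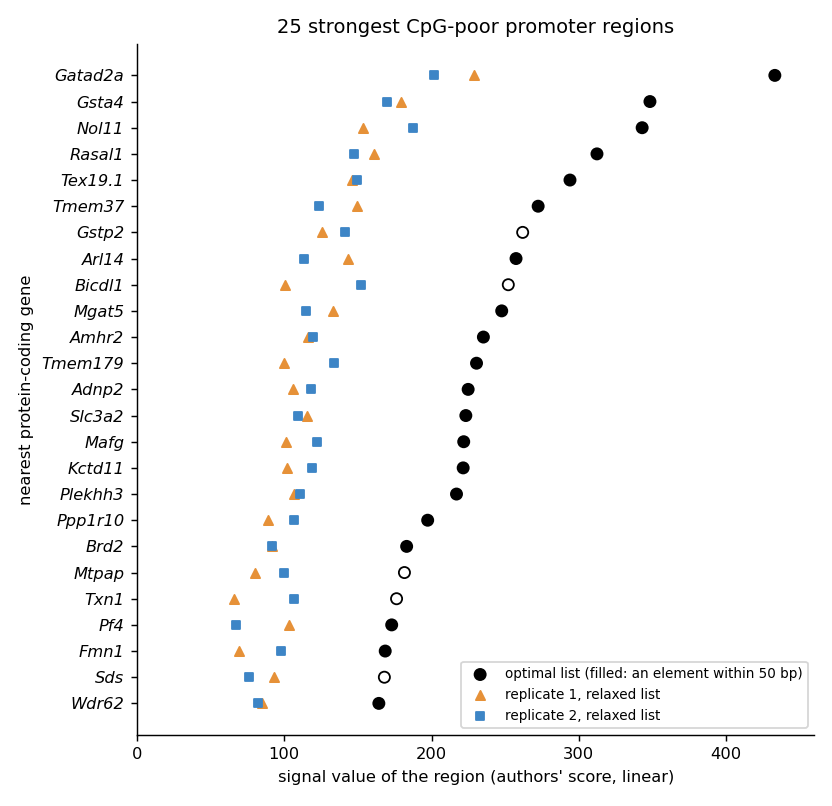
Signal value of the 25 strongest CpG-poor promoter regions (x axis, the authors' score on a linear scale) by nearest protein-coding gene (y axis). Circles are the optimal list, filled where any of 3 elements lies within 50 bp of the summit, triangles and squares are replicates 1 and 2 in the relaxed lists; 20 of 25 circles are filled, and the replicates fall below the optimal value for every region.

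The relaxed signals of the 827 members correlated between replicates with a Spearman rho of 0.705, given as a description across regions of the same 2 libraries, which share the selection of the list. Their median was 12.0 in replicate 1 and 15.3 in replicate 2. Members with the largest difference in rank included Zmynd8, a chromatin reader, with a signal of 3.66 in replicate 1 and 29.998 in replicate 2. Snai3 was likewise low in replicate 1 at 4.23 and high in replicate 2 at 25.5. Sptbn4 at 24.1 and 5.89, Med6, a Mediator subunit, at 24.2 and 6.33, and Hsd3b7 at 17.1 and 3.74 were the other way round. All 5 lay in the middle or lower range of signal, none above 33 in the optimal list.

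The thresholded lists of the single replicates held 296 members (34.1%) in both, 47 in replicate 1 only, 176 in replicate 2 only and 348 in neither. These lists come from a second processing of the reads, so a missing region is not shown to be unbound. Of the strongest 25% of members 95.9% were in both lists, and of the weakest 25% 0.922%. A member was more often in both lists than a CpG-rich promoter region, of which 169 of 747 (22.6%) were (odds ratio 1.77, 95% confidence interval 1.42 to 2.21, adjusted p = 8.954e-07, two-sided Fisher's exact test with Benjamini-Hochberg adjustment over 12 comparisons). Such p-values over regions describe these lists, since neighbouring regions share libraries and some overlap.

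**Figure D2:**
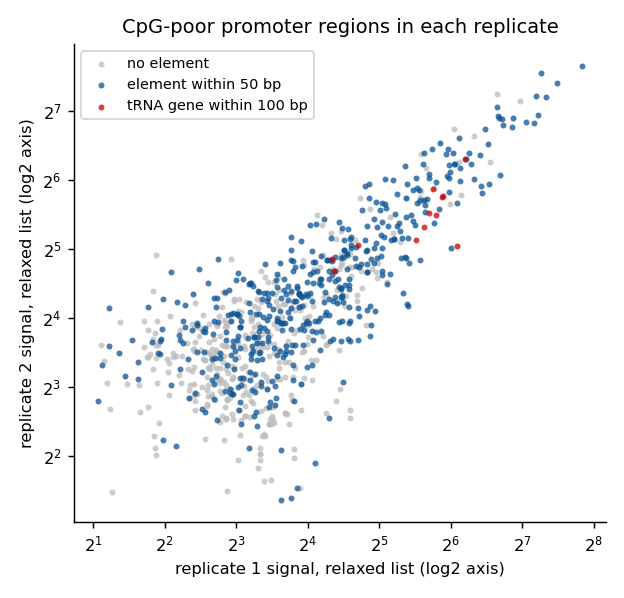
Signal of each member in replicate 1 (x axis) and replicate 2 (y axis) in the relaxed lists, both on log2 axes, for the 827 members present in both. Blue points have any of 3 elements within 50 bp, grey points have none and red points have a tRNA gene within 100 bp of the summit; the scatter is wider at low than at high signal, and the red points lie in the upper part.

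In signal the members stood between the other groups, by small margins. Their median of 25.95 compared with 21.1 at CpG-rich promoters, a mean log2 difference of 0.29 (0.18 to 0.40, adjusted p = 1.714e-05, two-sided permutation test, whose raw p of 1e-05 is the smallest that 100000 permutations can give). Without replicate 2, in the thresholded list of replicate 1, the difference was 0.092 (p = 0.2834, permutation test), and without replicate 1 it was 0.16 (p = 0.02575, permutation test). It held in the conservative list at 0.31 and at a CpG ratio below 0.4 at 0.33. Where both composition limits were required it was 0.098 (p = 0.1393, permutation test). Under either stricter composition rule the members left out joined the comparison promoters. Against the CpG-poor distal regions, with a median of 28.3, the difference was -0.14 (-0.22 to -0.07, adjusted p = 0.00021), which was -0.091 without replicate 2 (p = 0.07562) and -0.034 without replicate 1 (p = 0.4257, permutation tests).

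The clearest feature that the rule had not used was the MAF element. The search took in both strands, up to 50 bp to each side of a summit. The composite element was present in 149 of 867 members (17.2%, Wilson 95% interval 14.8 to 19.8%) and in 1 of 1734 windows of the same length placed 1000 bp to either side (0.0577%, odds ratio 359.6, 50.2 to 2575, adjusted p = 2.815e-73, Fisher's exact test, adjusted over 16 families). In the separate replicates' lists the share was 26.6% and 21.6%, a mean of 24.1% ± 3.51 (SD, n = 2). The lists of single replicates are shorter and hold fewer weak regions.

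The composite element contains the MAF core (TGCTGA), the AP-1 site (TGACTCA or TGAGTCA) and the ARE core, so these families are not independent. The ARE core was within 50 bp of 437 member summits (50.4%), against 8.65% of the flanks, the MAF core near 45.1% against 7.04%, the AP-1 site in 27.8% against 1.15%, and the T-MARE in 25.5% against 0.288% (largest adjusted p of the 4 = 3.138e-99). Any of the composite element, the ARE core and the T-MARE was present in 467 members (53.9%, 50.5 to 57.2%), against 8.82% of the flanking windows. The share was 65.4% and 63.7% in the lists of replicates 1 and 2 (64.5% ± 1.19, SD, n = 2). A shuffled MAF core (GTTCAG) was in 5.08% of member windows and 5.08% of flanks, and the composite element read backwards in no window of either. The backward form contains a CpG and so is touched by the rule, and its absence says little.

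The members lay between the CpG-rich and the distal regions in every one of these elements. The composite element was in 4.15% of CpG-rich promoter regions (odds ratio of members 4.79, 3.21 to 7.15, adjusted p = 3.273e-17) and in 30.3% of CpG-poor distal regions (odds ratio 0.478, 0.399 to 0.572, adjusted p = 4.393e-17, Fisher's exact test). The corresponding shares of any of the 3 elements were 34.4% and 66.7%. With CpG-poor defined instead by a CpG ratio below 0.4, the odds ratio against the distal regions was 0.756 (adjusted p = 0.06201, Fisher's exact test). No letters of the composite element form a CpG, so the composition limits do not act on it directly.

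Other factor motifs were rare at the member summits. NFY (CCAATCA or CCAATGA), a factor known from many promoters, was in 3.81% of members and 1.61% of flanking windows (adjusted p = 0.001909), and the CTCF core in 1.27% against 0.115% (adjusted p = 0.0005474, Fisher's exact tests). The NFY share at CpG-rich promoters was 2.14%, a difference that did not pass (adjusted p = 0.09376, Fisher's exact test). ETS (CCGGAAGT), NRF1 (nuclear respiratory factor, its palindrome with up to 1 mismatch), the GC box (GGGGCGGGG) and CRE (TGACGTCA), motifs that contain a CpG and so are touched by the rule, were each in 1.38% of members or fewer, against 3.21%, 3.35%, 4.02% and 1.34% of CpG-rich promoter regions, given as a description. SOX-OCT (up to 2 mismatches), ESRRB (TCAAGGTCA) and YY1 (AAGATGGCG), each in 0.461% of members or less, did not differ from the flanks beyond the threshold (adjusted p from 0.4608 to 0.9685).

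**Figure D3:**
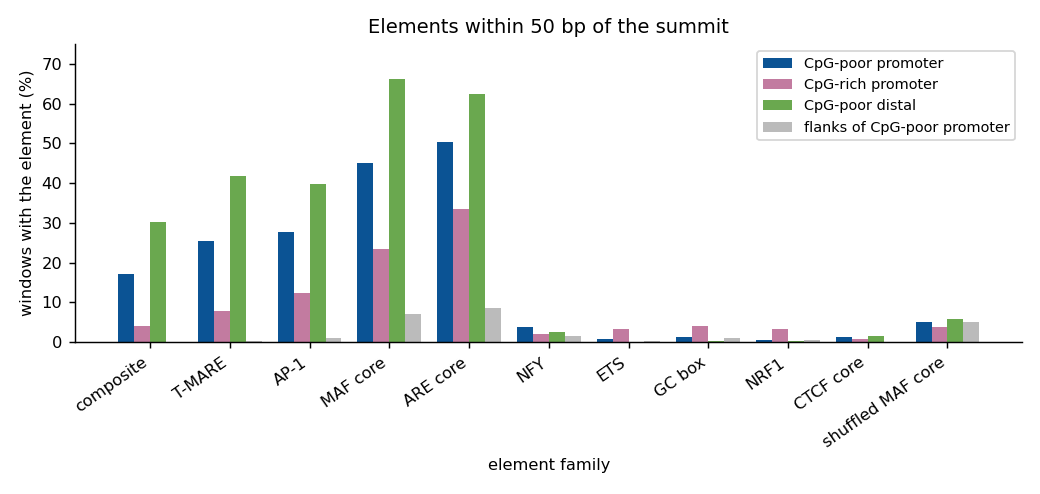
Share of windows with each element within 50 bp of the summit (y axis, %) by element family (x axis), for CpG-poor promoter, CpG-rich promoter and CpG-poor distal regions and for the flanks of the CpG-poor promoter regions. For the 5 MAF and AP-1 related families on the left the CpG-poor promoters stand between CpG-rich and distal regions, while the shuffled MAF core on the right is at 5.08% in both members and flanks.

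Within the members the element was close to the summit. Counting up to 150 bp from it, 160 members held the composite element, 135 of them no more than 25 bp away and the median one 10.5 bp away. The form TGACTCAGCA was found in 101 and TGAGTCAGCA in 59, and 79 of 160 lay on the strand of the gene. Members with any of the 3 elements within 50 bp had a median signal of 34.1, against 19.7 for the other 400, a mean log2 difference of 0.84 (0.69 to 0.98, adjusted p = 1.714e-05, permutation test, raw p at its smallest possible value of 1e-05). This comparison was chosen after the data were seen. It was 0.54 without replicate 1 and 0.54 without replicate 2, in the other replicate's own list (p = 1e-05 in each, permutation tests).

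The share with an element changed along the range of signal. It was 73.7% in the strongest 25% of members and 27.2% in the weakest, and the composite element was in 30.9% and 6.91%. The 50 members with a signal below 10 included 6 with an element and 1 in both replicates' lists. By composition, the composite element was in 22.2% of the members under both limits, 15.5% of those under the CpG limit alone and 4.04% of those under the GC limit alone. The members under the GC limit alone thus had a composite share close to the 4.15% of the CpG-rich promoters, a difference that was not tested.

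The 400 members without any of the 3 elements were not empty of MAF half-sites. The MAF core lay within 50 bp of 120 of their summits (30%), against 51 of 800 flanking windows (6.38%, odds ratio 6.29, 4.41 to 8.98, adjusted p = 6.519e-26, Fisher's exact test). An AT-extended form, in which the core follows A, a pair of A or T bases and then any base, was in 39 (9.75%) against 2 of the flanking windows (0.25%, odds ratio 43.1, adjusted p = 8.106e-17, Fisher's exact test). Both comparisons were chosen after the data were seen. Of the 400 members, 99 (24.75%) held one of the 3 elements when up to 150 bp from the summit was counted. Among the 100 strongest members 25 lacked the 3 elements within 50 bp, and 9 of these 25 had the MAF core.

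Another 9 of those 25 lay beside a tRNA gene, which RNA polymerase III transcribes. The remaining 7 of the 25 had neither the MAF core nor a tRNA gene nearby. Sept9 at 132, Arhgef4 at 115, Susd2 at 113 and Snx10 at 107 were among them. In all, 12 members had a RefSeq tRNA gene within 100 bp of the summit, of 402 such genes on these chromosomes. Their median signal was 100, against 25.5 for the other members, all 12 were in both replicates' lists, and 2 of the 12 had an element. The highest was the region 250 bp upstream of Ilf2, an RNA-binding factor gene, with a signal of 151, and with 73.6 and 78.7 in replicates 1 and 2.

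Mynn, Aloxe3 and Fmc1 followed with signals of 114.1, 114.1 and 113. The lowest of the 12, Acp6, had 48.5, which is above the upper quartile of all members. Regions at tRNA genes were also found elsewhere: 19 CpG-rich promoter regions (2.54%, against 1.38% of the members, odds ratio 0.538, adjusted p = 0.1122, Fisher's exact test) and 168 distal regions (1.11%) also lay at tRNA genes, with median signals of 67.7 and 71.9. The share at tRNA genes was below that of CpG-rich promoters past the threshold in 5 of 8 alternatives, among them without replicate 1 (odds ratio 0.455, p = 0.03845, Fisher's exact test) and at a CpG ratio below 0.4, where 0 of 434 members and 2.63% of the other promoter regions lay at one. Of the 12 members 9 met the GC limit alone, the group that is not depleted of CpG. Elements were also rare there, in 1 of 19 and in 13 of 168. A control library was not analysed here.

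Among the other strong regions without an element within 50 bp, Gstp2 had a signal of 262, with 126 and 141 in the replicates, and Bicdl1 252, with 100.2 and 152. Txn1 had 176.2, with 65.7 and 107, and Sds, a serine-degrading enzyme gene, 168, with 93.2 and 76.4. All of them held the MAF core, as the printed stretches show, and Mtpap at 182 did as well. Counted up to 150 bp from the summit, Gstp2 and Mtpap held one of the 3 elements, while Bicdl1, Txn1 and Sds did not. The 5 strongest members without an element within 50 bp therefore each carried at least a MAF half-site. At Sds the printed bases read tgctGAGCTCAGCA, with the MAF core on both strands. This palindrome is longer than the T-MARE and was not among the forms searched. Being without an element means here only that none of the 3 searched forms was matched.

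Repeat-masked summits were more common among members than at CpG-rich promoters, 106 of 867 (12.2%) against 58 of 747 (7.76%, odds ratio 1.66, 1.18 to 2.32, adjusted p = 0.004473, Fisher's exact test). The call was lost in 5 of 9 alternatives, among them without replicate 2 (odds ratio 1.28, p = 0.3795, Fisher's exact test), while without replicate 1 the ratio was 3.21 (p = 9.2e-05, Fisher's exact test). Masked members had the composite element in 28 of 106 (26.4%) and any of the 3 elements in 55 (51.9%), against 412 of 761 (54.1%) for unmasked members. Their median signal was 23.0. Masked regions thus did not lack the element.

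The members were spread over the 2 kb around the TSS. Their median distance to it was 389 bp, against 157 bp for CpG-rich promoter regions, and 32.9% lay within 200 bp against 58.2%. Composition was measured around the summit, so the rule itself may sort regions by distance from the TSS, which was not tested. Upstream of the TSS lay 530 (61.1%), against 63.2% of the CpG-rich regions (odds ratio 0.916, 0.749 to 1.12, adjusted p = 0.4106, Fisher's exact test), so a difference of position to either side was not detected. The outermost bins held 198 members from 1000 to 501 bp upstream and 148 from 501 to 1000 bp downstream, and the next bin upstream held 152. The share with an element was 66.9% in the outer downstream bin, 63.2% in the first 100 bp downstream and 40.6% in the 100 bp just upstream of the TSS, as a description.

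**Figure D4:**
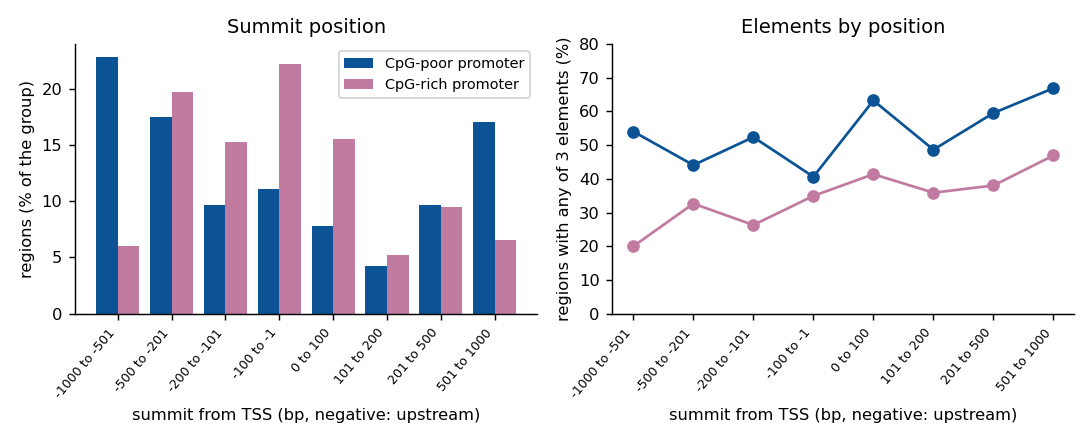
Position of the summit relative to the nearest TSS (x axes, bp, negative upstream, bins of unequal width) for CpG-poor and CpG-rich promoter regions. The left panel gives the share of each group in the bin (y axis, %), where the CpG-poor regions exceed the CpG-rich ones most in the outermost bin on each side, and the right panel the share of regions with any of 3 elements (y axis, %), where the CpG-poor points are above the CpG-rich ones in each bin.

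The promoters can also be counted from the side of the genes, with 1 promoter per gene at its 5′-most TSS and its composition taken around the TSS. A summit of the optimal list lay within 1 kb of 400 of 11855 CpG-poor promoters (3.37%) and of 878 of 9850 CpG-rich ones (8.91%, odds ratio 0.357, 0.316 to 0.403, adjusted p = 4.915e-66, Fisher's exact test). CpG-poor promoters thus had a summit less often. In the shorter lists of single replicates the shares were 1.33% and 3.15% without replicate 2 and 1.99% and 4.59% without replicate 1, with odds ratios of 0.416 and 0.422. A composite element within 1 kb of the TSS was held by 190 CpG-poor promoters, and 75 of these had a summit (39.5%, 32.8 to 46.6%), against 2.79% of those without it (odds ratio 22.8, 16.7 to 31.1, adjusted p = 1.029e-60, Fisher's exact test). The odds ratio was 35.5 without replicate 2, where 25.3% of the promoters with the element had a summit, 29.2 without replicate 1, where 31.1% had one, and 3.07 where 1 mismatch to the element was allowed.

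Of the 99 CpG-rich promoters with the element 61 had a summit (61.6%, 51.8 to 70.6%), so among promoters that carry it the CpG-poor ones were also bound less often (odds ratio 0.406, 0.247 to 0.669, adjusted p = 0.0006398, Fisher's exact test). Without replicate 2 the shares were 25.3% and 39.4%, with an odds ratio of 0.520 (p = 0.01517, Fisher's exact test). For summits called in both replicates' lists the ratio was 0.585 (p = 0.06671, Fisher's exact test). The composite element was in 18.8% of the bound and 1.00% of the unbound CpG-poor promoters. Shorter motifs say little over such long windows: the ARE core was in 92.8% of the bound and 80.1% of the unbound ones, and the shuffled MAF core in 67.8% and 68.0%. A TATA box (TATAAA or TATATA, 40 to 15 bases upstream of the TSS) was found at 13 of 841 TSSs nearest to members (1.55%). It was at 6 of 708 TSSs nearest to CpG-rich promoter regions (0.848%) and at 638 of 11455 unbound CpG-poor promoters (5.57%). The last set holds only 5′-most TSSs in CpG-poor windows, while the TSSs nearest to members include other starts. Members and unbound promoters are thus unlike sets, and no difference between them was tested.

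**Figure D5:**
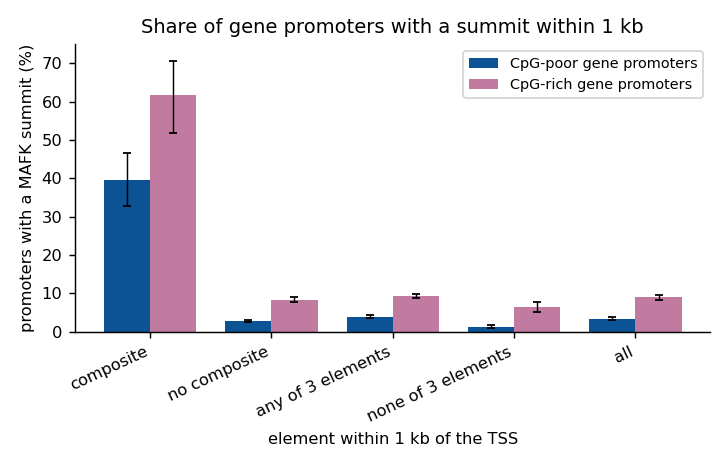
Share of gene promoters with a MAFK summit within 1 kb of the 5′-most TSS (y axis, %, bars from 0, error bars are Wilson 95% intervals) for CpG-poor and CpG-rich promoters, by the element found within 1 kb of the TSS (x axis). Promoters with the composite element stand at 39.5% and 61.6%, and those without it at 2.79% and 8.38%.

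The genes near members were counted in lists chosen from textbook roles, without a test, beside the 3.95% of all 21705 protein-coding genes that had a member within 1 kb. A gene with only CpG-rich summits does not count as having a member. Counts below that include CpG-rich summits have another background. Counted at any TSS, 4.66% of genes with a CpG-poor 5′-most promoter had a summit of the optimal list, and 10.4% of the other genes. Of 36 antioxidant and NRF2-type detoxification genes 12 had a member (33.3%). Their 12 regions had a median signal of 71.5, 8 held an element and 9 were in both replicates' lists. In glutathione S-transferases 6 of 25 genes (24.0%) had a member, and in the small MAF, CNC and BACH list 2 of 10. Antioxidant genes were thus the list with the highest share of genes with a member. Any promoter summit, CpG-rich ones included, was found at 19 of the 36 antioxidant genes and at 6 of the 25 glutathione S-transferases. The lists overlap: Gsta4 and Gstp1 count in both, and Sqstm1 also counts as an autophagy gene.

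Quinone and carbonyl reduction was represented by Nqo1, with a signal of 157 and 74.4 and 79.1 in the replicates, and Cbr3, with 143, 69.1 and 77.0. Nqo1 held the ARE core printed above, while Cbr3 had only the MAF core. Thioredoxin itself (Txn1) had one of the strong regions without an element described above. In glutathione metabolism Gsta4 stood highest, Gpx2, a glutathione peroxidase, had 49.6 with 22.1 and 29.2, and Gsr, glutathione reductase, 22.8 with 13.6 and 11.4. Gsr was in neither thresholded list of a replicate.

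The cystine carrier Slc7a11 had a signal of 45.4, with 20.1 and 28.4 in the replicates, well under that of its partner Slc3a2. Both were called in each replicate. The efflux pump gene Abcc1 had 18.1, with 11.1 and 5.82, the UDP-glucuronate enzyme gene Ugdh 69.7, with 28.3 and 40.2, and the NADPH-forming enzyme gene Idh1 14.6, with 4.61 and 9.04. Abcc1 and Idh1 had no element within 50 bp. Sqstm1, an autophagy receptor that binds KEAP1, shares its region, with a composite element and a signal of 121, with Mgat4b.

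The glutathione S-transferase members of the Gstp cluster lie on chromosome 19. Gstp2 had the region of 262 and a second one of 96.5, with 33.7 and 64.5 in the replicates, and Gstp1 one of 73.2, with 27.05 and 47.2. The genes of this cluster are near-identical copies, so reads could be split between them and these values are uncertain. Gstp3 had 40.3, Gstm4 162 and Gstm5 19.9. Gstp3 was called in replicate 2 alone and Gstm5 in neither replicate, while Gstm4, Gstp1 and both Gstp2 regions were called in each.

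In the small MAF, CNC and BACH list Mafg carried the composite element at a signal of 222. Keap1, the NRF2 inhibitor, had 16.6, with 7.35 and 7.05, no element within 50 bp, and was called in neither replicate's list. The Keap1 region is thus a weak call. None of the other 8 genes of this list, Mafk and Nfe2l2 among them, had a member. With CpG-rich summits counted as well, 4 of the 10 genes had a promoter summit.

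Other lists held few members. Of 20 pluripotency genes 3 had them: Dppa2 with 3 regions of 79.7, 32.7 and 26.7, Lin28a with 33.4 and Pou5f1, encoding OCT4, with 30.2. The Dppa2 regions lie within 1 kb of each other, the 2 weaker share a relaxed region in replicate 1, and Pou5f1 had no element and was called in replicate 2 only. Heme and iron genes had 2 of 30 (Abcb6 at 43.7 and the iron exporter Slc40a1 at 21.8), proteasome genes 3 of 39 (Psmb3 at 83.9, beside a tRNA gene, Psmb6 at 38.9 and Psme4 at 34.1) and autophagy genes 2 of 15, Sqstm1 and Gabarapl2, the latter at 8.77. The shares of the first of these 3 lists and of the proteasome list, 6.67% and 7.69%, rest on 2 and 3 genes. With CpG-rich summits counted as well, 17 of the 39 proteasome genes had a promoter summit.

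Immune genes had 3 of 20: Cd68 at 43.0, Il6 at 19.6 and Itgam at 18.5, none in both replicates' lists. Germ cell genes had 1 of 20, Tnp2, whose 2 overlapping regions at 53.7 and 10.3 hold the same relaxed regions, and housekeeping genes 1 of 15, Gapdh, with 2 regions at 100.3 and 28.8. No mesendoderm, neuroectoderm, liver or keratin and epidermis gene had a member. Of the 12 neuroectoderm genes 2 had a promoter summit that was not a member. Lists of this length allow no finer statement.

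Of the gene families, olfactory receptors had 7 of 1143 genes (0.612%) and vomeronasal receptors 3 of 331 (0.906%), both below the background of 3.95%. The strongest were Olfr1428 at 67.0, Olfr313 at 63.5, Olfr1052 at 61.6, Olfr995 at 41.4 and Vmn1r39 at 61.5. Ribosomal protein genes had 1 of 79, Rpl14 at 8.37, and 10 of the 79 had a promoter summit with CpG-rich ones counted. Keratins had 0 of 53, cytochrome P450 genes 2 of 99 (Cyp7b1 at 51.5 and Cyp2b23 at 51.2) and Serpin genes 2 of 62. Solute carriers with 18 of 385 (4.68%) and Zfp genes with 22 of 394 (5.58%) were near the background. In each of Olfr and Slc most regions held an element, 5 of 7 and 12 of 18, and of 25 Zfp regions 8 did.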

How the data were processed

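MAFK ChIP-seq regions of 2 replicates of ES-E14 cells were used as deposited. Regions are on mm10. The values are the score the authors deposited as signal value in narrowPeak lists, and for the scale, aligner and peak caller the sources here give no name. The optimal and conservative lists come, per the text notes the authors deposited, from relaxed lists of each replicate and of the pooled reads by the irreproducible discovery rate, and the replicates' thresholded lists come from a second processing. From these, summits were set against GENCODE vM21 TSSs (58504 protein-coding transcripts, 21705 genes) and the GRCm38 sequence, whose lower-case bases give repeats. The 29 regions outside chromosomes 1 to 19 and X were left out. A region counted as shared at an overlap of 1 bp. Signals were compared on the log2 scale with two-sided permutation tests, shares with two-sided Fisher's exact tests, adjusted by Benjamini-Hochberg (Python 3.11.15, scipy 1.17.1). Scripts were tested on simulated data. Members and lists were chosen with earlier results of these data known. Named were the 25 strongest members, up to 4 per list, every member of the small MAF list, 3 on each side of a limit, the 5 strongest without an element and the 5 with the largest rank difference between replicates; other names, Vangl1 and the tRNA neighbours among them, were chosen after their values were seen. Some items the rule names are not reported here. Alternatives were the conservative list, each replicate's list, regions in both, the strongest 50%, narrower promoters, stricter composition limits and other element windows.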

Additional observations from a re-analysis of the deposited data

How the results depend on the processing

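Of 132 alternatives over 15 comparisons, 106 kept their direction and side of the threshold. The cause of the other outcomes was not tested. Under stricter composition limits, the CpG-rich comparison group also takes in the members that those limits leave out. Signal against CpG-rich promoters (log2 difference) was 0.072 in the strongest 50% of regions, -0.025 in regions of both replicates' lists, 0.098 under both composition limits, and 0.092 to 0.16 when either replicate was left out. Against distal regions it was -0.073 in the conservative list, 0.013 in the strongest 50%, -0.015 in both replicates' lists and -0.026 at a CpG ratio below 0.4, and ran from -0.091 to -0.034 when a replicate was left out. For members with against without an element, 0.16 and 0.17 were found in the strongest 50% and in both replicates' lists. The strongest 50% and the regions in both replicates' lists are themselves selected by signal, so the signal differences within them say nothing on stability.

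Odds ratios for a summit at a tRNA gene, against CpG-rich promoters, were 0.406 in the strongest 50% and 0.404 in both replicates' lists. They were 0.215 under both composition limits and 0.042 at a CpG ratio below 0.4, where the comparison group grew to 1227 and 1180 promoter regions. All of these were past the threshold, and odds ratios were 0.455 to 0.586 when a replicate was left out. For repeat summits they were 1.45 in the conservative list, 1.63 in the strongest 50%, 2.08 in both replicates' lists, 1.45 for promoters within 500 bp, and 1.28 to 3.21 when a replicate was left out. The upstream share reversed to 1.07 under both composition limits and 1.01 at a CpG ratio below 0.4. The composite element against distal regions was 0.756 at that ratio, and the bound share of CpG-poor promoters with the element 0.585 in both replicates' lists. The composite element against flanks and against CpG-rich promoters held under all 11 alternatives each, and the share in both replicates' lists under all 7.

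The comparisons of tRNA genes, MAF cores without an element and signal by element, with their alternatives, were chosen after seeing the data. No paired analysis was possible because there is 1 group. Read depth is unknown, so weak regions could not be weighed by counting error.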
